A study of Phaseolus vulgaris with 6 samples.

Results

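Trichomes of the common bean (Phaseolus vulgaris) carrying the label EPI were compared with trichomes carrying the label AG, by RNA sequencing of messenger RNA. The comparison held 4 of the 6 libraries of the series, EPI libraries 1 and 2 and AG libraries 1 and 2. The remaining libraries, called BG and made from hooked hairs, were kept out of the contrast. Of 27433 genes listed in each library, the 20510 genes with at least 1 TPM (transcript abundance corrected for gene length and for library size) in at least 2 of the 4 libraries were tested. All plants were of genotype L88-57 and were grown in normal conditions in a growth chamber at 25 degrees Celsius, 65% humidity and low light. The labels do not spell out EPI and AG, so the organ or position that distinguishes these trichomes is unknown, and whether replicate libraries stem from different plants is not stated.

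Trichomes are outgrowths of single epidermal cells or cell files. They are known for shielding the plant surface from herbivores, water loss and light, and in legumes they may be straight, hooked or glandular. Their growth rests on epidermal transcription factors, directed expansion of the cell wall and deposition of cuticle. The files list genes by Phvul number with no symbol or product, and 0 of these IDs occur in the reference gene table of P. vulgaris v2.0. No gene could therefore be given a role, and neither the label of trichome nor the presence of other cell types could be checked against marker genes. In tissue samples such as these, fewer cells of a type and less RNA per cell cannot be told apart.

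The listed genes summed to between 940686 and 961603 TPM per library. Depth in reads is unknown. Coverage divided by FPKM, a measure of relative depth at equal read length, was 1.21 in EPI library 1, 1.13 in AG library 1 and 1.27 in AG library 2 relative to EPI library 2. Expression was concentrated in fewer genes in AG library 1 than in the other libraries. The genes that together held 50% of its listed TPM numbered 851, against 1113 and 1164 in the EPI libraries and 1157 in AG library 2. The 100 most abundant genes held 16.6% and 15.3% of listed TPM in the EPI libraries, against 22.3% and 19.9% in the AG libraries. AG library 1 also had the fewest genes at 1 TPM or more, 19194, where the other 3 libraries had 20135 to 20276.

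How far the libraries of one group stood apart set the scale for every difference between the groups. On log2(TPM + 1), the EPI libraries differed by a median of 0.37 per gene and the AG libraries by 0.43. Between an EPI and an AG library the median difference was 0.45 to 0.62. The widest pair was EPI library 1 and AG library 1, with 1944 genes (9.48% of those tested) at least 4-fold apart. The pair with the fewest such genes lay between the groups: EPI library 2 and AG library 2 had 542 (2.64%), against the 725 (3.53%) between the EPI libraries and the 668 (3.26%) between the AG libraries. By Pearson correlation across genes, which are not independent replicates, EPI library 2 was as near to AG library 2 (r = 0.899) as to EPI library 1 (r = 0.899). Scaling the libraries to a common median ratio left 533 genes 4-fold apart between EPI library 2 and AG library 2, 729 between the EPI libraries and 639 between the AG libraries. By the median difference, by contrast, each library lay nearer to its own partner than to either library of the other group. The same held for genes at least 2-fold apart, with 15.4% between the EPI libraries and 17.7% between the AG libraries, against 19.8% to 29.2% between the groups. The highest correlation was that of the AG libraries (r = 0.915).

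**Figure D1:**
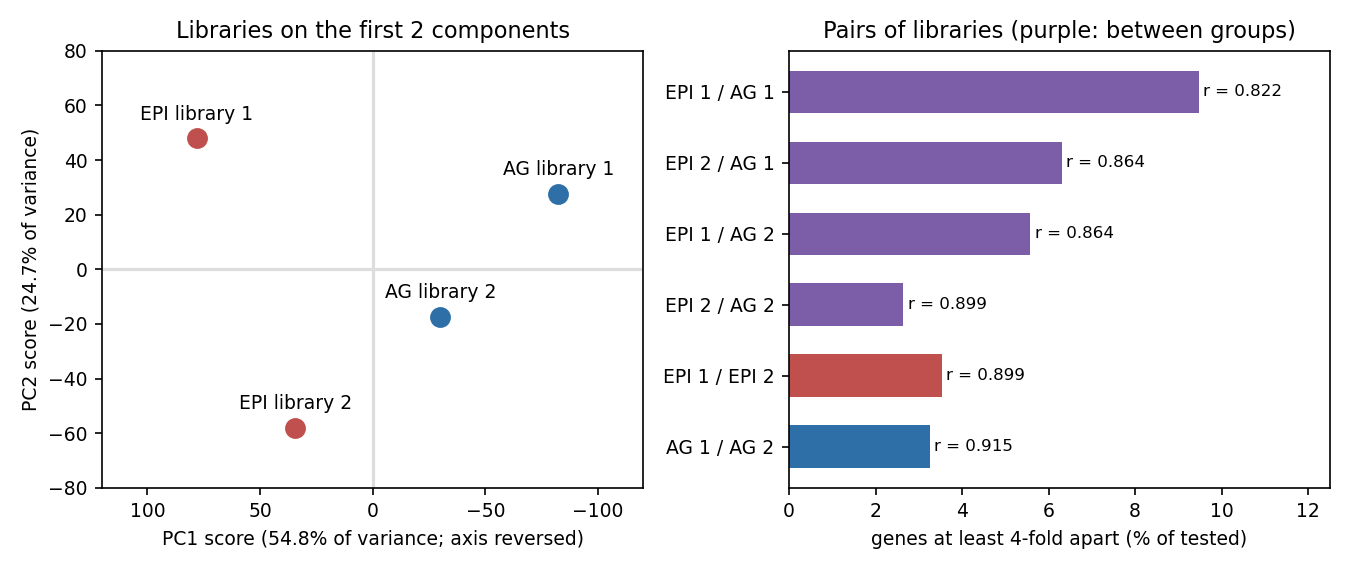
Left, scores of the 4 libraries on the first 2 principal components of log2(TPM + 1); right, the percentage of 20510 tested genes at least 4-fold apart in each pair of libraries, with the Pearson correlation across genes. The EPI libraries lie on one side of the first component and the AG libraries on the other, while the shortest bar, 2.64%, is that of EPI library 2 against AG library 2.

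The first principal component ordered the libraries by group and held 54.8% of the variance. EPI library 1 scored 78.1 and EPI library 2 scored 34.3, against -82.4 for AG library 1 and -30.0 for AG library 2. The second component, with 24.7%, placed EPI library 1 at 47.9 and EPI library 2 at -58.1. AG library 1 stood at 27.6 and AG library 2 at -17.4, so both libraries 1 scored above both libraries 2. The third component, with 20.5%, did not order the libraries in that way. Of the summed squared deviations over all genes, 49.5% lay between the group means, 26.2% between the EPI libraries and 24.3% between the AG libraries. These shares were 49.6%, 25.5% and 24.9% after median-of-ratios scaling. Library spread alone also puts part of the squared deviations between the group means, so that share by itself does not measure a group effect.

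No gene passed the test between EPI and AG. By limma on log2(TPM + 1) with Benjamini-Hochberg adjustment, 0 of 20510 genes (0%) had an adjusted p under 0.05, and the smallest adjusted p was 0.226, shared by 446 genes. In a fit over all 6 libraries 0 genes passed, and 7 passed there when EPI library 2 was left out. In that fit EPI was library 1 alone, and the spread came from the AG and BG libraries. An unadjusted limma p under 0.05 was reached by 3282 genes (16%), of which 2021 (9.85%) were higher and 1261 (6.15%) lower in EPI. If no gene differed and p-values were uniform, 1026 genes would be expected there. Genes share the same libraries and can shift together, so the count cannot be read as an excess over chance. All 3282 had EPI and AG libraries that did not overlap. For any single gene, exact permutation of 2 against 2 libraries gives a two-sided p of 0.333 at best. The differences below are therefore given as measured values. Since plants are not identified, the limma p-values reflect library-to-library spread that may be purely technical.

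The differences between group means were mostly small. Their median absolute size was 0.43 on the log2 scale, 90% were under 1.36 and 99% under 2.59. The median itself was 0.15 in favour of EPI as deposited and 0.01 after median-of-ratios scaling, a scaling that brings the median near 0 by construction. Of the 20510 tested genes, 2460 had means 2-fold or more above AG in EPI, and 1404 had means 2-fold or more below. All counts by means were taken on TPM as deposited, where the median was shifted towards EPI. Whether their excess of genes higher in EPI would remain after scaling was not tested. At least 4-fold differences numbered 363 higher and 268 lower, and at least 16-fold differences 6 higher and 2 lower. A large difference of means did not always keep the libraries apart. Among the genes at least 4-fold higher in EPI, 32 of 363 (8.82%) had overlapping libraries, against 3 of 268 (1.12%) among those at least 4-fold lower.

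**Figure D2:**
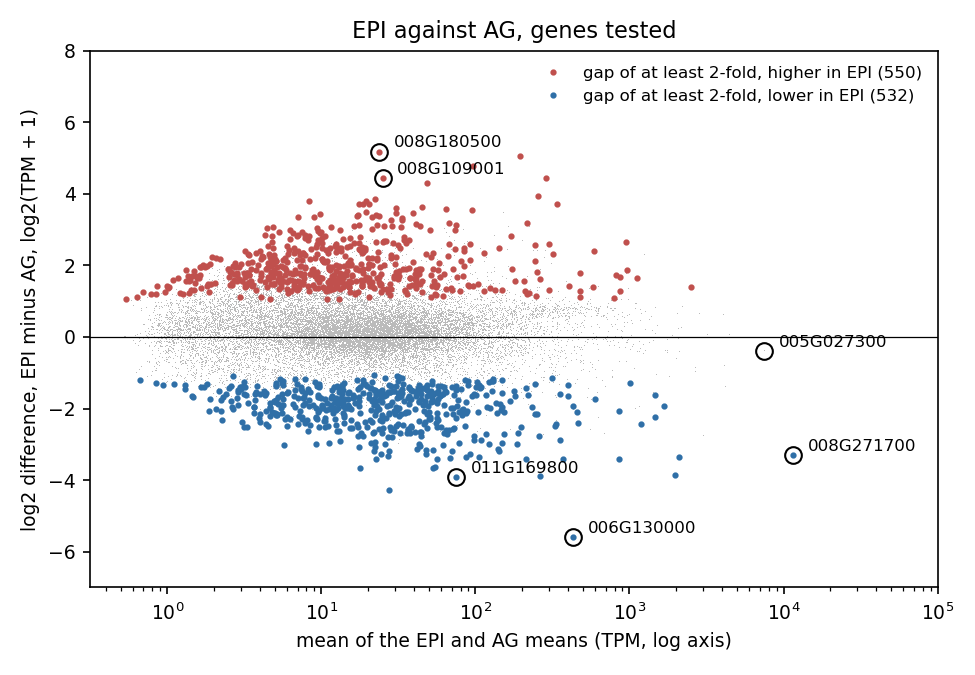
Log2 difference between the EPI and AG means on log2(TPM + 1), against the mean of the group means in TPM (log axis), for the 20510 tested genes. Coloured points are the 550 genes higher and 532 genes lower in EPI whose closest libraries were at least 2-fold apart; circles mark the 6 genes named in the text, with the Phvul prefix left out.

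Separation was measured by the gap, the distance on log2(TPM + 1) between the lowest library of the higher group and the highest library of the lower group. The groups did not overlap in 10151 genes (49.5% of those tested), 6380 higher in EPI (31.1%) and 3771 lower (18.4%). Of the 6 possible assignments of 4 libraries to 2 groups of 2, 2 separate any gene without ties, a share of 0.333. Many genes are therefore separated without a group difference. Genes share the same libraries, so the distance of 49.5% from that share was not tested. The remaining genes split by pattern. In 1938 genes (9.45%) the EPI libraries lay on either side of both AG libraries, in 2769 (13.5%) the AG libraries lay on either side of both EPI libraries, and in 5652 (27.6%) the libraries of the groups interleaved or tied. The share of separated genes that were higher in EPI was 62.9% as deposited and 50.9% after median-of-ratios scaling, with 5278 genes higher (25.7%) and 5084 lower (24.8%).

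A gap of at least 2-fold was found in 1082 genes (5.28%), of which 550 (2.68%) were higher in EPI and 532 (2.59%) lower. A gap of at least 4-fold was left in 83 genes (0.405%), with 31 higher (0.151%) and 52 lower (0.254%). Only 3 genes higher and 4 lower in EPI kept a gap of at least 8-fold. At 2-fold, both libraries of the lower group were under 1 TPM in 78 of the 550 genes and 33 of the 532. At 4-fold the same held for 8 of the 31 genes and 2 of the 52. Such genes entered the test through the higher group alone and had to be separated. After scaling, the genes with a 2-fold gap numbered 409 higher (1.99%) and 635 lower (3.1%), so the share that was higher in EPI was 39.2%, against 50.8% as deposited. Those with a 4-fold gap were 28 higher (0.137%) and 65 lower (0.317%). These counts moved with the pseudocount. With 0.1 in place of 1, the 2-fold gap held for 864 genes higher and 676 lower in EPI, and with 10 for 103 higher and 198 lower. The 4-fold gap held for 122 higher and 101 lower with 0.1, and for 4 higher and 12 lower with 10. Which direction held more genes at 4-fold thus depended on the pseudocount.

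**Figure D3:**
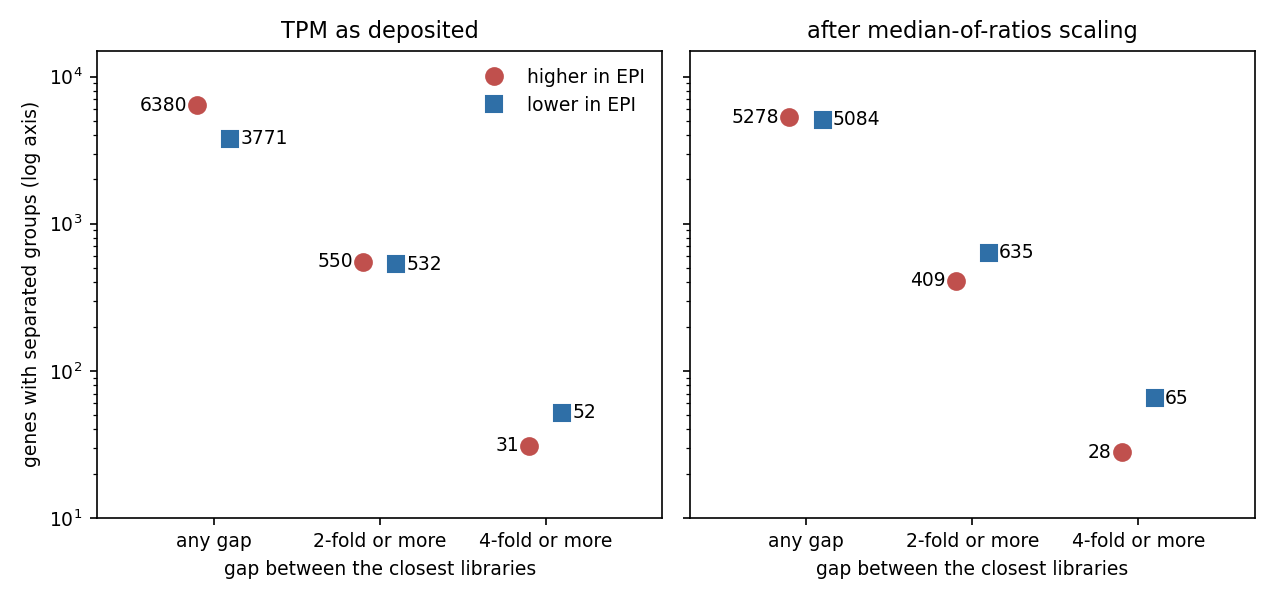
Number of genes (log axis) whose EPI and AG libraries did not overlap, by the least gap between the closest libraries on log2(TPM + 1), for TPM as deposited (left) and after median-of-ratios scaling (right). Genes higher in EPI outnumber lower ones at any gap as deposited, 6380 against 3771, and are outnumbered at a gap of at least 4-fold, 31 against 52. With a pseudocount of 0.1, not drawn here, the 4-fold counts were 122 higher and 101 lower.

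Each library held back a part of these gaps. With fewer libraries to clear, leaving one out can only raise the counts. Without EPI library 1 the genes with a 2-fold gap numbered 1571 higher and 888 lower in EPI, and without EPI library 2 they numbered 1694 and 1123. Leaving out AG library 1 gave 859 genes higher and 1076 lower, and leaving out AG library 2 gave 2283 higher and 1202 lower. Genes higher in EPI with a 4-fold gap numbered 55 without AG library 1, 121 without EPI library 1, 431 without AG library 2 and 509 without EPI library 2. Genes lower in EPI with a 4-fold gap numbered 88 without EPI library 1, 158 without AG library 1, 250 without EPI library 2 and 271 without AG library 2. The 4-fold counts were highest, in both directions, without EPI library 2 or AG library 2, the pair with the fewest genes 4-fold apart.

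Libraries of one group also disagreed strongly in places. The EPI libraries were at least 4-fold apart in 725 genes, with 414 higher in library 1 and 311 higher in library 2. The AG libraries were that far apart in 668 genes, with 151 higher in library 1 and 517 higher in library 2. After median-of-ratios scaling the split was 466 and 263 genes for EPI libraries 1 and 2 and 236 and 403 genes for AG libraries 1 and 2. The lists had 119 genes in common, 16.4% of the EPI list and 17.8% of the AG list. At least 16-fold disagreement was seen in 67 genes of EPI, 41 genes of AG and 2 genes of both. In 32 genes (0.156%) one EPI library stood at least 2-fold above both AG libraries and the other at least 2-fold below both, and in 30 genes (0.146%) the AG libraries did the same around EPI.

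Agreement between replicates varied with the level of a gene. Genes with a mean under 5 TPM over the 4 libraries differed by a median of 0.60 between the EPI libraries and 0.57 between the AG libraries, against 0.52 between the group means. Averaging narrows a difference of means, while the values within groups come from single libraries. The values are thus unlike measures, and a smaller one between means does not show that the groups differ less than replicates. For the 7261 genes of 20 to 100 TPM these values were 0.28, 0.37 and 0.37. At 100 to 1000 TPM the difference of means, with a median of 0.56 over 1693 genes, exceeded the spread within EPI (0.29) and within AG (0.41). Above 1000 TPM, with 70 genes, the spread within groups was again wide, at 0.61 and 0.74, against 0.58 between means. Genes with a 2-fold gap that were higher in EPI made up 3.22% of the genes under 5 TPM and 2.30% of those of 100 to 1000 TPM. For genes lower in EPI the corresponding shares were 1.66% and 3.60%, and among the 70 genes above 1000 TPM they were 2 genes higher and 8 genes lower in EPI (2.86% and 11.4%).

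The 532 genes lower in EPI with a 2-fold gap held 1.35% and 1.89% of listed TPM in the EPI libraries. In the AG libraries they held 10.3% and 7.15%. A single gene, Phvul.008G271700.v2.1, made up 3.00% and 1.47% of listed TPM in AG, and without it the other genes of the set held 1.21% and 1.59% in EPI and 7.30% and 5.68% in AG. The 550 genes higher in EPI held 5.09% and 3.64% in EPI, against 1.09% and 1.34% in AG. These sets were chosen for their gap, which fixes the direction and sets a least size, so the shares are given as a description. In the median gene of the higher set the mean was 19.0 TPM in EPI and 3.89 TPM in AG, and in the median gene of the lower set it was 8.32 TPM in EPI and 39.4 TPM in AG. The higher group averaged 100 TPM or more for 65 genes higher and 113 genes lower in EPI.

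The most abundant genes were shared only in part. Of the 10 genes with the highest mean in EPI and the 10 with the highest mean in AG, 3 were in both lists (30% of each). Of the top 100 it was 61 (61%), and of the top 1000 it was 744 (74.4%). Libraries of one group were not always more alike in this respect: the top 100 of EPI libraries 1 and 2 had 71 genes in common and those of the AG libraries 61, while EPI library 1 and AG library 2 also had 61 in common. EPI library 2 and AG library 1 had 42. In the top 10 the EPI libraries had 6 genes in common and the AG libraries 4, while EPI library 2 and AG library 2 had 6. For the top 1000 these numbers were 831, 755 and 748. The overlaps of the group lists therefore do not by themselves show a group difference. Among the 139 genes in the top 100 of either group, 9 had a 2-fold gap with EPI higher and 12 a 2-fold gap with EPI lower, where 2.68% and 2.59% of all tested genes had such gaps. A gene that is high in a single group enters the 139 through that group. The choice thus favours gaps, and no excess over all tested genes can be read from these counts.

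The gene with the highest mean in EPI was Phvul.005G027300.v2.1 (chromosome 5, 2539594 to 2540118, minus strand), a short gene spanning 525 bp. Its level was 5563 and 7424 TPM in the EPI libraries, against 7935 and 8860 TPM in the AG libraries. The groups did not overlap but nearly touched. Means were 6493 ± 1316 TPM in EPI and 8398 ± 654 TPM in AG (SD, n = 2 each), a log2 difference of -0.38 ± 0.98 (SE, limma adjusted p = 0.883) that turned to 0.90 after quantile normalization. It held rank 1 in both EPI libraries and rank 3 in both AG libraries. The gene with the highest mean in AG was Phvul.008G271700.v2.1 (chromosome 8, 61570709 to 61571513, plus strand). It stood at 1390 and 2841 TPM in the EPI libraries, against 28189 and 13823 TPM in the AG libraries. Both AG libraries lay above both EPI libraries, and the gene held rank 39 in EPI library 1, rank 7 in EPI library 2 and rank 1 in each AG library. The log2 difference was -3.31 ± 1.01 (SE, limma adjusted p = 0.261).

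The widest gap in favour of EPI belonged to Phvul.008G180500.v2.1 (chromosome 8, 51021869 to 51023764, plus strand). Its level was 59.0 and 34.9 TPM in the EPI libraries, against 0.34 and 0.21 TPM in the AG libraries. Even the closest libraries were 26.7-fold apart on TPM + 1, and this was the only gene with a gap of at least 16-fold as deposited. With both AG libraries under 1 TPM, the gene entered the test through EPI alone. Its groups therefore had to be separated, and only the width of the gap was free. The log2 difference was 5.18 ± 0.42 (SE, limma adjusted p = 0.226). In hooked hairs it stood at 0.78 and 0.15 TPM, near the AG level. The next was Phvul.008G109001.v2.1 (chromosome 8, 10681885 to 10685563, minus strand), at 67.7 and 29.7 TPM in the EPI libraries, against 0.58 and 1.85 TPM in the AG libraries. Here the closest libraries were 10.8-fold apart, and the log2 difference was 4.44 ± 0.56 (SE, limma adjusted p = 0.226). It too was low in hooked hairs, at 2.66 and 3.00 TPM.

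In the other direction the widest gap was that of Phvul.006G130000.v2.1 (chromosome 6, 23785101 to 23790542, minus strand). It stood at 6.99 and 29.7 TPM in the EPI libraries, against 1209 and 469 TPM in the AG libraries. The EPI libraries themselves differed widely, and the closest libraries of the groups were 15.3-fold apart. The log2 difference was -5.59 ± 0.78 (SE, limma adjusted p = 0.226), from means of 18.33 ± 16.03 TPM in EPI and 839 ± 523 TPM in AG (SD, n = 2 each). Hooked hairs had 723 and 780 TPM, within the range of the AG libraries, and EPI was the lowest of the 3 groups, a difference from hooked hairs that was not tested here. Phvul.011G169800.v2.1 (chromosome 11, 47672315 to 47673186, plus strand) had 7.44 and 6.90 TPM in the EPI libraries, against 218 and 68.3 TPM in the AG libraries. The EPI libraries agreed closely while the AG libraries did not, and the closest libraries were 8.21-fold apart. Its log2 difference was -3.92 ± 0.57 (SE, limma adjusted p = 0.226). Hooked hairs lay between the groups at 19.2 and 19.9 TPM. None of these 6 genes overlaps another listed gene, but copies of similar sequence elsewhere could share their reads.

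**Figure D4:**
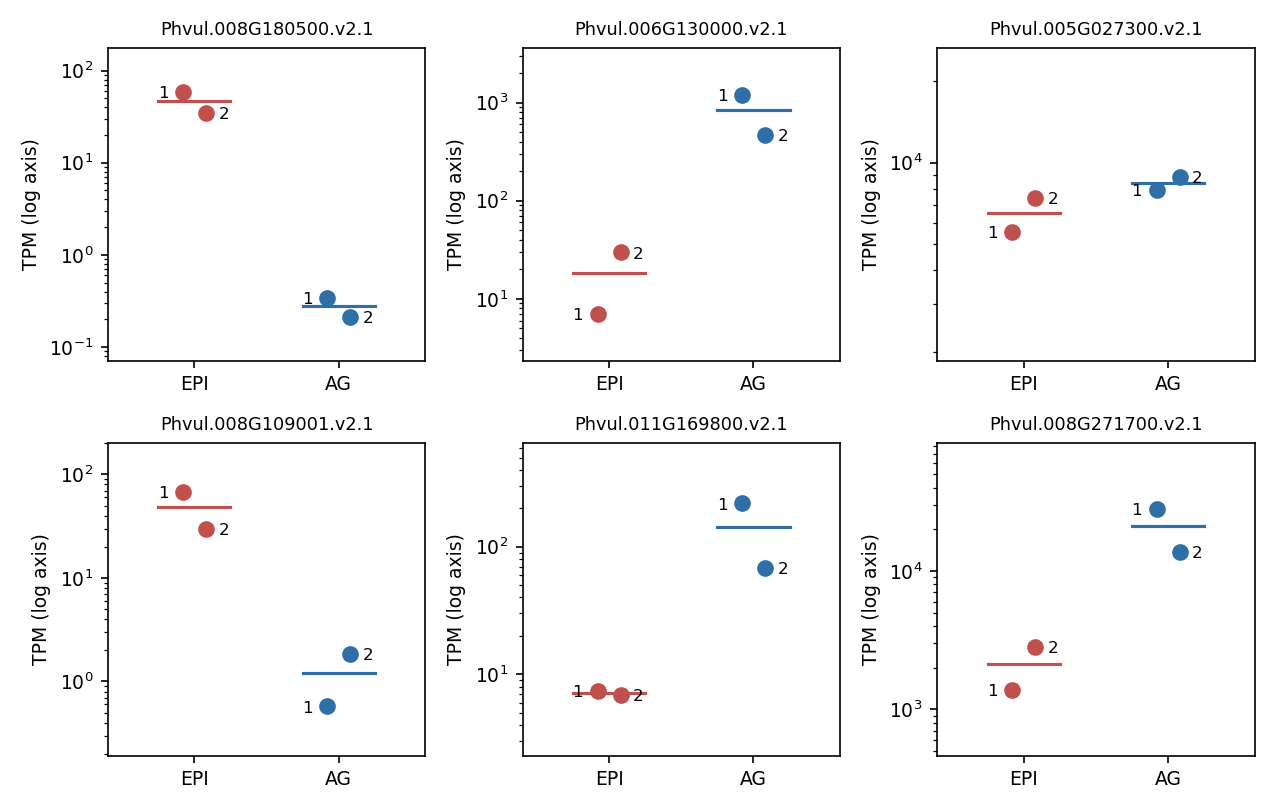
TPM (log axis) of the 6 named genes in each EPI and AG library; points carry the library number and lines mark the group mean of n = 2. Left, genes with the widest gap in favour of EPI; middle, genes with the widest gap in favour of AG; right, the genes with the highest mean in EPI (top) and in AG (bottom).

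Presence in one trichome group alone was rare and lay near the detection level. At 1 TPM, 18065 genes (65.9% of those listed) were found in all 4 libraries and 5619 (20.5%) in none. A further 305 genes were found in both EPI libraries and neither AG library, and 153 in both AG libraries and neither EPI library. Genes of these sets entered the test through one group alone and had to be separated. Their levels were low, with a median of 2.45 TPM in EPI for the set of 305 genes and 2.01 TPM in AG for the set of 153. A level of at least 5 TPM in both libraries was reached by 11 of the 305 genes and 3 of the 153. Another 919 genes were found in both EPI libraries and 1 AG library, and 453 in 1 EPI library and both AG libraries, beside the lower number of genes at 1 TPM in AG library 1. The part of that library in these counts was not tested.

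Genes with a 2-fold gap were spread over the genome. On the 11 chromosomes, genes higher in EPI made up 1.84% (chromosome 6) to 3.14% (chromosome 7) of the genes tested, around the 2.68% over all genes. Genes lower in EPI made up 2.07% (chromosome 4) to 3.14% (chromosome 6), around 2.59%. Their median span, introns included, was 2450 bp for genes higher and 2110 bp for genes lower in EPI, against 3440 bp for all tested genes. Genes spanning under 1000 bp made up 15.6% of those higher and 21.2% of those lower in EPI, 34.6% of the 52 genes lower with a 4-fold gap, and 9.53% of all tested genes. Short genes were also frequent among those on which replicates disagreed: they made up 19.9% of the genes 4-fold apart between the EPI libraries and 30.1% of those 4-fold apart between the AG libraries. Their part in the result was not tested.

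Genes lower in EPI lay next to each other in places. Among the 532 genes lower in EPI with a 2-fold gap, 105 (19.7%) had a neighbouring tested gene in the same set. Among the 550 genes higher in EPI it was 56 (10.2%). Runs of at least 3 such neighbours numbered 4 among genes lower in EPI, with 13 genes, and 0 among genes higher in EPI. Within a run no gene overlapped the next, and in 3 of the 4 runs all genes lay on the minus strand. Reads may be split between neighbours whose sequences are alike, which was not examined. With TPM scaled by median ratios there were 5 runs lower and 0 higher, with a pseudocount of 10 there were 0 in both directions, and with a pseudocount of 0.1 there were 7 lower and 3 higher. A stricter filter of 5 TPM gave 3 lower and 1 higher. With any library left out the runs numbered 15 to 22 lower and 3 to 50 higher in EPI: 16 and 12 without EPI library 1, 22 and 32 without EPI library 2, 15 and 3 without AG library 1, and 21 and 50 without AG library 2.

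The run with the highest level held 4 genes of 612 to 1130 bp on chromosome 1, between 45383316 and 45400151. Summed over the genes, their level was 169 and 235 TPM in the EPI libraries, against 1456 and 707 TPM in the AG libraries. The sum was 5.35-fold higher in AG by the means. On log2(TPM + 1) the differences of the genes lay between -2.49 and -2.15, with AG means of 9.08 to 560 TPM. The added 1 understates the difference of the lowest gene, with means of 1.21 TPM in EPI and 9.08 TPM in AG. Summed over the genes of the run, hooked hairs stood at 336 and 101 TPM. On chromosome 7, between 657680 and 677076, 3 genes summed to 88.5 and 133 TPM in EPI, against 659 and 617 TPM in AG. Here the AG libraries agreed closely, and the log2 differences were -2.77 to -1.51. Hooked hairs, at 159 and 154 TPM, lay just above EPI.

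The remaining runs had lower summed levels. On chromosome 5, between 34264189 and 34307096, 3 genes summed to 18.3 and 38.7 TPM in EPI and 316 and 178 TPM in AG, a ratio of 8.66 in favour of AG, with log2 differences of -3.26 to -1.77. Another 3 genes on chromosome 1, between 42053403 and 42121659, summed to 4.32 and 9.76 TPM in EPI and 58.0 and 28.1 TPM in AG, with log2 differences of -2.30 to -2.14. In each of the 4 runs EPI library 1 had the lowest sum of the 4 libraries and AG library 1 the highest. No gene of these runs passed the test, and their limma adjusted p lay between 0.226 and 0.251.

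**Figure D5:**
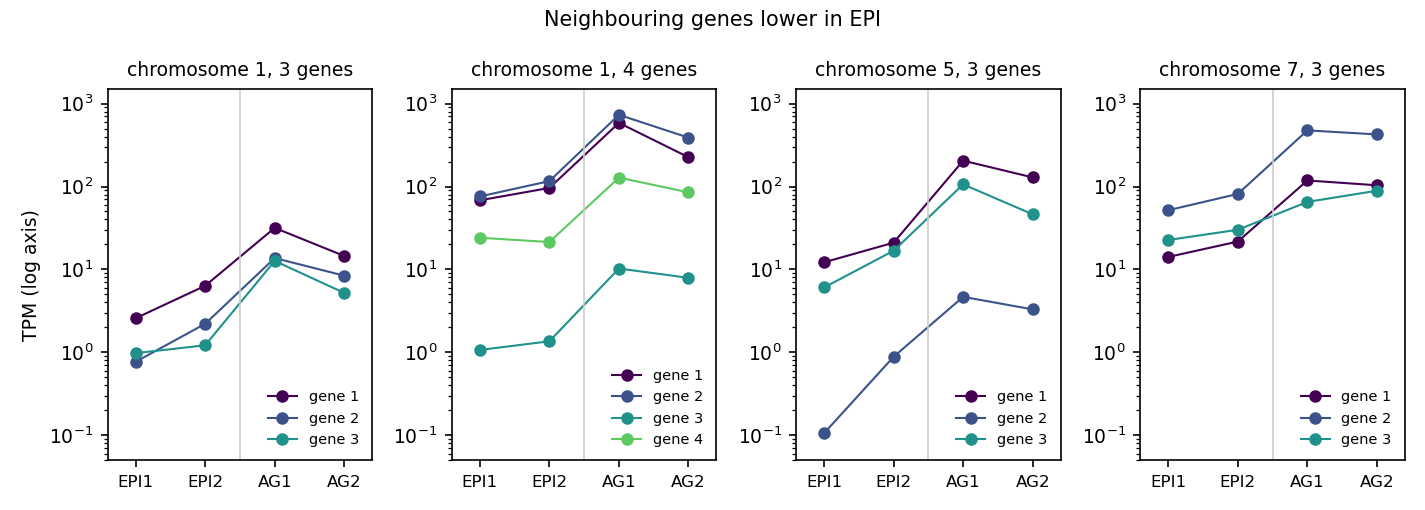
TPM (log axis) of each gene in the 4 runs of neighbouring genes lower in EPI, in EPI libraries 1 and 2 and AG libraries 1 and 2; a line joins the values of 1 gene and does not stand for an order of replicates. All genes stand higher in both AG libraries than in both EPI libraries.

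Hooked hairs were set beside the genes with a 2-fold gap to place them in the series, with no test. Among the 550 genes higher in EPI, both hooked hair libraries stood at or above the lower EPI library in 131 genes (23.8%), at or below the higher AG library in 101 (18.4%) and between the groups in 142 (25.8%). For the 532 genes lower in EPI, the hooked hair libraries were on the EPI side in 143 genes (26.9%), on the AG side in 29 (5.45%) and between the groups in 114 (21.4%). The other genes had hooked hair libraries that fell into more than one of these ranges. Among genes with a 4-fold gap, hooked hairs were on the EPI side in 3 of the 31 genes higher in EPI, on the AG side in 9, between the groups in 12 and in more than one range in 7. Of the 52 genes lower in EPI the corresponding numbers were 11, 1 (Phvul.006G130000.v2.1), 12 and 28.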

How the data were processed

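Messenger RNA was sequenced in 6 libraries, of which the 4 titled EPI and AG enter this comparison; groups and replicate numbers came from the titles. The labels' protocols give the RNeasy mini plus kit for extraction and a SMARTER mRNA-Seq kit for library preparation. The submitters' processing notes name Trimmomatic, HISAT2 and StringTie; the genome build and whether the kit kept strand are not given in the sources used here. Per the file headers, each library's table holds coverage, FPKM and TPM per gene. TPM was computed by the authors and is normalized for gene length and depth; the deposited FPKM values are a multiple of them within a library and served as an alternative, and the deposited coverage signal was used only for relative depth. Whole reads were not recovered, so depth in reads is unknown and no counting intervals are given.

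limma 3.58.1 in R 4.3.3 was fitted to log2(TPM + 1) of the genes that reached 1 TPM in 2 or more of the 4 libraries, with 1 mean per group, 2 residual degrees of freedom, variances moderated with a trend (prior degrees of freedom 2.99), two-sided tests and Benjamini-Hochberg adjustment at 0.05. Fold gaps are on TPM + 1, which understates low genes. Each SD comes from the 2 libraries of one group. The fit was tested on simulated data. The simulated noise was independent between genes, with a spread set by expression level alone. Effects shared by the genes of a library, and differences in spread between genes of like level, were thus not covered. Changes were planted only in genes above the median level. The simulation therefore cannot show how many true differences the fit would find in these data. Named genes were the 2 per direction with the widest gap and a mean of at least 10 TPM in the higher group, plus the gene with the highest mean in each group. The comparison, lists and rules were chosen with earlier results of these data known. The 43 lists by product name and the cell type markers could not be matched to the gene IDs and were not run. Alternatives were pseudocounts of 0.1 and 10, no filter, a filter of 5 TPM, median-of-ratios and quantile scaling, FPKM, no variance trend, a fit on all 6 libraries, a replicate block and each library left out. Figures were drawn with matplotlib 3.10.9.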

Additional observations from a re-analysis of the deposited data

How the results depend on the processing

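The count of genes past the threshold was 0 under each of the 14 other settings named with the processing, with the smallest limma adjusted p between 0.150 (without AG replicate 2) and 0.526 (without EPI replicate 1). Fits that left out 1 library from all 6 were added after the data were seen: 7 genes passed without EPI replicate 2 (smallest adjusted p 0.0324), and 0 passed in the other 3. Where a library was left out, its group was a single library, assumed to vary like the remaining groups. The number of genes under an unadjusted p of 0.05 ran from 1897 (without EPI replicate 1) to 3886 (all 6 libraries without AG replicate 2).

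Whether libraries with the same number belong together is not stated. The difference of replicate 1 minus 2 correlated at -0.05 across genes between EPI and AG. This value cannot exclude pairing, and the second principal component placed both libraries 1 above both libraries 2. The third component, with 20.5% of the variance, did not. It placed EPI library 1 at 2.84 and EPI library 2 at -30.9, but AG library 1 at -32.1 and AG library 2 at 60.1. With a replicate block, 0 genes passed, and the smallest adjusted p was 0.340.

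The number of genes with a 2-fold gap was 864 higher in EPI with a pseudocount of 0.1, and 103 higher and 198 lower with a pseudocount of 10. Leaving out a library gave 859 to 2283 genes higher and 888 to 1202 lower. On FPKM, 34 genes were lower with a 4-fold gap, against 52 on TPM. All named genes had separated groups, so another pseudocount or leaving out a library could not turn their direction. The filters, the fit without a variance trend, the fit on all 6 libraries and the replicate block left their differences unchanged. Only rescaling of the libraries or FPKM could have turned a direction. The named genes kept their direction under all 18 other settings, except Phvul.005G027300.v2.1, whose log2 difference was 0.90 after quantile normalization. That scaling keeps only the rank of a gene within each library. Rank 1 in both EPI libraries and rank 3 in both AG libraries therefore give a higher value in EPI. The median difference over all genes lay between 0.0011 and 0.29.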
